A study of Mus musculus with 4 samples.

Results

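Neuropeptides are small signaling proteins that neurons cut from larger precursors, pack into dense-core vesicles and release beside their fast transmitter. Spinal motor neurons use acetylcholine as that transmitter and are also known for calcitonin gene-related peptide (CGRP), which is carried to the nerve terminals in muscle. The precursor genes of 9 neuropeptides were examined: Calca and Calcb (the α and β forms of CGRP), Uts2 (urotensin 2, a vasoactive peptide), Cartpt (cocaine- and amphetamine-regulated transcript), Penk1 (proenkephalin, the precursor of the enkephalin opioids), Sst (somatostatin, an inhibitory peptide), Npy (neuropeptide Y), Gal (galanin) and Tac1 (the precursor of substance P and neurokinin A). They are 9 of the 27189 gene entries in each library, each symbol having 1 entry, and were picked by name with their values in the genotypes and in the replicates already known. The genotype values of these 9 genes are therefore a description, without a test.

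The libraries were made from polyA RNA of large ventral horn cell bodies, stained with Azure B and captured by laser from the spinal cord, 3000 to 4000 cell bodies from each mouse. Each of the 4 libraries came from 1 mouse at 3 months of age, 2 from strain 592, which carries the wild-type SOD1-YFP transgene, and 2 from strain 737, which carries the G85R SOD1-YFP transgene. Both transgenes are a genomic fragment of human SOD1 joined to yellow fluorescent protein, in mice of mixed C57BL/6J and SJL/J background, and the mouse Sod1 gene is not stated to be altered in either strain. The G85R protein is a mutant form found in amyotrophic lateral sclerosis, and these mice become paralyzed after the age studied. Each genotype is a single transgenic line, and the lines also differ in the number of transgene copies and in the insertion site, so that the mutation, copy number and line cannot be told apart. The G85R strain is homozygous for its insertion on chromosome 4, the chromosome on which Uts2 and Penk1 lie, and the part of the insertion site in their values was not tested. Cell bodies with large aggregates stained darkly and were left out of the capture in G85R cords, so that the values are those of the other large cell bodies.

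The estimated reads summed over all gene entries were 21.6M to 25.2M in each library, which is less than all reads sequenced, and 17116 to 17398 genes had a value above 0. All 8 motor neuron markers averaged 1 or more in RPKM (reads scaled to transcript length and to library depth). Their sum was 2472 and 2731 in the wild-type libraries, against 2205 and 2575 with G85R. Nefh, the largest part of that sum, was at 1085 and 1068 in wild-type, against 1002 and 1106 in G85R. Each of the 8 was lowest in G85R replicate 1. Chat was at 66.3 and 81.2 in wild-type, against 49.6 and 65.5 in G85R, and Isl2 at 16.6 and 21.4, against 10.7 and 17.4. The 4 markers of dorsal root sensory neurons, cells that are rich in Calca and Tac1, summed to at most 0.12, with Mrgprd at 0 in all 4 libraries. Other cell types were present. The 6 oligodendrocyte markers summed to 786 to 1027 and the 9 interneuron markers to 190 to 222. The 6 astrocyte markers summed to 33.8 and 37.1 in wild-type and to 124 and 49.0 in G85R replicates 1 and 2, where Gfap made up 91.9 and 28.4 of the sum. The 6 microglial markers summed to 19.2 in G85R replicate 1 and to 8.39 to 8.72 in the other 3 libraries, the 3 red blood cell markers to 1.82 and 2.10 in wild-type, against 11.5 and 10.8 in G85R, and the 5 endothelial markers to 6.97 to 9.27. Replicate 1 of G85R thus stood apart in glial RNA, and the values of the single libraries are given for that reason.

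On the mouse genome build NCBIM37, Calca (chr7:121774994-121779871, minus strand) and Calcb (chr7:121862157-121866879, plus strand) are neighbors, 82.3 kb apart. The other genes are spread over the genome: Npy (chr6:49772709-49779506) and Tac1 (chr6:7505071-7512973) on chromosome 6, Uts2 (chr4:150371206-150375919) and Penk1 (chr4:4060678-4065966, annotated as Penk) on chromosome 4, Cartpt (chr13:100668439-100670638), Sst (chr16:23889667-23890930) and Gal (chr19:3409919-3414472). All are annotated as protein-coding genes, and their longest transcripts run from 538 bases for Uts2 to 1449 bases for Penk1.

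The sequences of Calca and Calcb are shown because they bear on how far the values of these neighbors are separate. Calca is spliced into 2 messages, one for calcitonin and one for CGRP, and the entry for Calca holds both, so that the messages cannot be told apart in these values. The annotated transcript Calca-201 shares an unbroken run of 60 bases with Calcb-201, and the closest windows of 75 bases differ at 2 positions, whereas Calca-202 shares a run of at most 13 bases with Calcb-201. At the end of that shared run, in coding sequence, the bases that differ are in capitals.
Calca, chr7:121776048-121776077, minus strand: ctgtgtgacccatcggctggcagGTctgct
Calcb, chr7:121865525-121865554, plus strand: ctgtgtgacccatcggctggcagACctgct
The reads were 75 bases long, so no whole read fits in that run. A read over it from either gene differs from the other gene at 2 bases or more. The deposited values do not say how reads with so few differences were placed. The level of Calcb is uncertain only as far as such reads were misplaced.

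Calca and Uts2 had the highest levels of the 9 genes in every library. Calca was at 748 and 884 RPKM in wild-type replicates 1 and 2 and at 340 and 718 in G85R replicates 1 and 2, which placed it among the 140 most abundant genes of every library. Uts2 was at 387 and 332 RPKM in wild-type, against 303 and 230 in G85R. Calca was above Uts2 within each of the 4 libraries, although their ranges over libraries overlapped. Calcb followed at 113 and 118 RPKM in wild-type, against 67.3 and 95.7 in G85R, below Uts2 and above Cartpt without overlap.

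Cartpt, Penk1 and Sst made a middle group whose ranges overlapped. Cartpt was at 48.7 and 35.8 RPKM in wild-type, against 15.4 and 21.3 in G85R, so that it was the highest of this group in every library except G85R replicate 1, where it was the lowest. Penk1 was at 31.0 and 21.3 RPKM in wild-type, against 27.8 and 20.4 in G85R. Sst was at 25.0 RPKM in each wild-type library, and the G85R libraries were just below, at 23.8 and 20.6. Interneurons of the spinal cord also use enkephalin and somatostatin, and the part of the interneuron RNA given above in these levels was not tested.

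Npy, Gal and Tac1 were low. Gal was at 4.31 and 4.24 RPKM in wild-type, against 1.55 and 2.07 in G85R, which rests on an estimated 88, 92, 29 and 41 reads. Tac1 was at 1.26 and 0.840 RPKM in wild-type, against 1.04 and 1.78 in G85R, from 28 to 54 estimated reads. Npy was at 1.38 and 1.12 RPKM in wild-type, against 2.95 and 19.7 in G85R, from 22, 19, 43 and 305 estimated reads. Npy and Gal could not be ordered, each being the higher in 2 of the 4 libraries, while Gal was above Tac1 in all 4. In G85R replicate 2 Npy was nearly at the level of Sst, in G85R replicate 1 it was above Gal and Tac1, and in the wild-type libraries it lay between those genes.

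**Figure D1:**
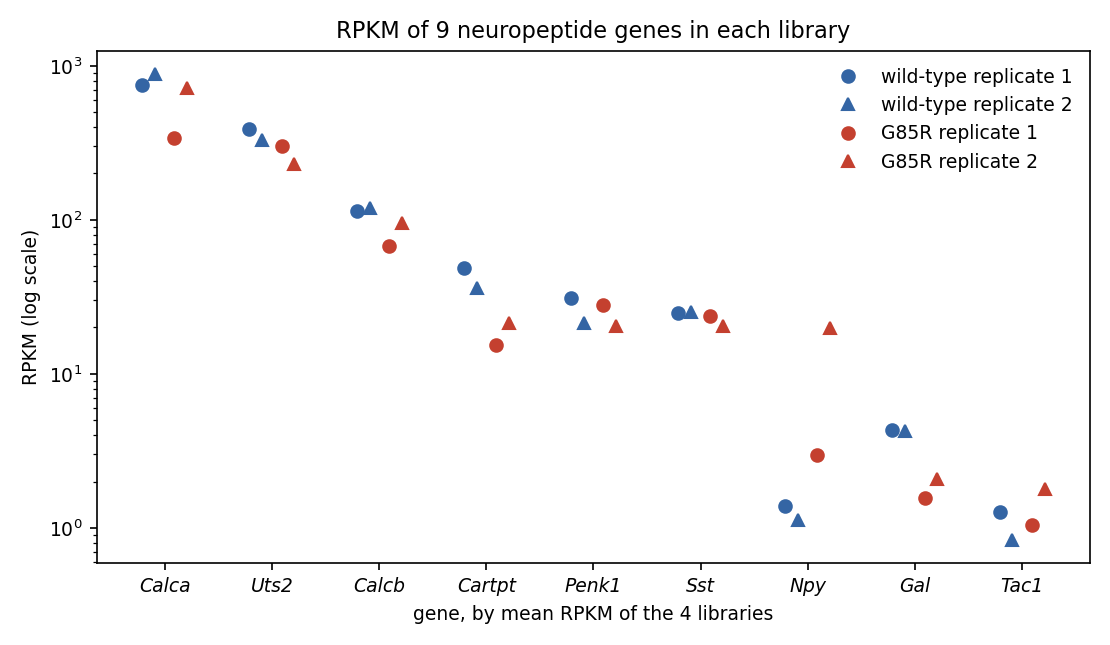
RPKM of the 9 neuropeptide genes, on a log axis, in the wild-type (blue) and G85R (red) libraries; circles are replicate 1 and triangles replicate 2. The levels run from 884 RPKM for Calca in wild-type replicate 2 to 0.840 for Tac1 in the same library, and Npy is the gene whose libraries lie farthest apart.

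A few genes carried most of the peptide message. Over the 57 neuropeptide genes found by symbol, the 9 described here with 48 others, the summed RPKM was 1573 and 1656 in the wild-type libraries, against 927 and 1336 with G85R. The 9 genes held 84.4% to 86.5% of that sum in every library. Calca alone held 47.6% and 53.4% in wild-type, against 36.6% and 53.7% in G85R. Uts2 held 24.6% and 20.1% in wild-type, against 32.7% and 17.2% in G85R. Its share was highest in the library with the lowest share of Calca. Shares of the same sum depend on each other, and in RPKM Uts2 was at 303 there, below both wild-type libraries (387 and 332).

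Between genotypes, 6 of the 9 genes were lower in both G85R libraries than in both wild-type libraries, Npy was higher in both, and the ranges of Penk1 and Tac1 overlapped. All 9 genes were among the 11530 that averaged 1 RPKM or more and were tested, and over those the genotypes did not overlap in 41.2%, being lower in G85R in 23.9% and higher in 17.3%. By limma at an adjusted p under 0.05, 0.642% of the tested genes were called (74 genes, 0.373% lower and 0.269% higher in G85R) and 0 of these 9, and 5 of the 9 against 11.0% of all tested genes had an unadjusted p under 0.05. Since the genes were picked on this contrast, nothing is read from these counts. The median log2 fold change, on the log2(RPKM + 0.1) scale used throughout, was -0.44 for the 9 genes and -0.02 for all tested genes. In bulk RNA of this kind, fewer cells that express a gene and less of its RNA in each cell cannot be told apart.

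Of the 9 genes, Cartpt and Gal had the largest decreases, and in both the gap between genotypes was wider than that within either. Cartpt averaged 42.3 ± 9.09 RPKM (SD, n = 2) in wild-type and 18.3 ± 4.14 in G85R, a ratio of 2.30 and a log2 fold change of -1.20. Its G85R libraries were 1.43 and 0.97 below the wild-type mean on the log2 scale (-1.43 and -0.97). Gal averaged 4.27 ± 0.0493 RPKM in wild-type and 1.81 ± 0.364 in G85R, a log2 fold change of -1.21. A fold change as large as that of Cartpt in either direction was seen in 1.01% of the tested genes, and one as large as that of Gal in 0.989%.

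Among the abundant peptides the decreases were smaller. Calca averaged 816 ± 96.0 RPKM in wild-type and 529 ± 268 in G85R, a log2 fold change of -0.72, and Calcb 116 ± 3.68 and 81.5 ± 20.1, a log2 fold change of -0.53. For both CGRP genes most of the decrease was in G85R replicate 1. That library was 1.26 (log2) below the wild-type mean in Calca and 0.78 below in Calcb (-1.26 and -0.78), and G85R replicate 2 was 0.18 and 0.28 below (-0.18 and -0.28). Uts2 averaged 360 ± 38.7 RPKM in wild-type and 267 ± 51.6 in G85R, a log2 fold change of -0.44, and here G85R replicate 2 was the lower of the G85R libraries. Sst was slightly below the wild-type range in both G85R libraries, with a log2 fold change of -0.18.

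The remaining genes had no common direction. Npy averaged 1.25 ± 0.183 RPKM in wild-type and 11.3 ± 11.9 in G85R, a log2 fold change of 2.53, and its G85R libraries were 1.18 and 3.88 above the wild-type mean. With an SD as large as the mean, the G85R average of Npy describes neither library. Penk1 had a log2 fold change of -0.11 and Tac1 of 0.37, and in both genes at least 1 G85R library lay within the wild-type range.

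**Figure D2:**
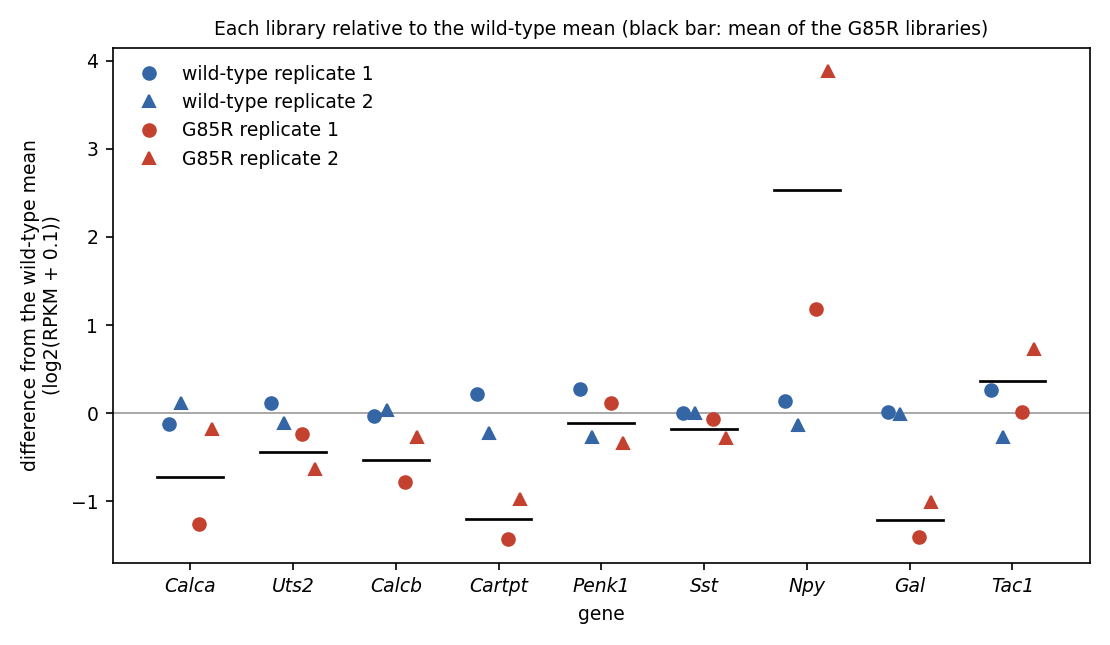
Difference of each library from the wild-type mean for the 9 genes, in log2(RPKM + 0.1); blue is wild-type, red is G85R, circles are replicate 1, triangles are replicate 2, and the black bar is the mean of the G85R libraries. Cartpt and Gal are about 1 or more below 0 in both G85R libraries (-1.43 to -0.97 for Cartpt), Calca is far below in replicate 1 only (-1.26 against -0.18), and Npy is above in both (1.18 and 3.88).

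The G85R replicates differed from each other in several of these genes by more than most genes did. The median absolute difference between the G85R replicates was 0.46 (log2) for the 9 genes and 0.15 for all tested genes, and between the wild-type replicates it was 0.24 and 0.16. Npy differed 6.68-fold between the G85R replicates, and 0.182% of the tested genes differed by as much. Calca differed 2.11-fold between them, a difference that 0.867% of the tested genes reached. The next were Tac1 with 1.71-fold (2.39% of genes), at few reads, and Calcb with 1.42-fold (6.63%). The wild-type replicates differed 1.23-fold in Npy and 1.18-fold in Calca. These genes had been picked partly for such differences, so the shares describe them and do not test them.

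**Figure D3:**
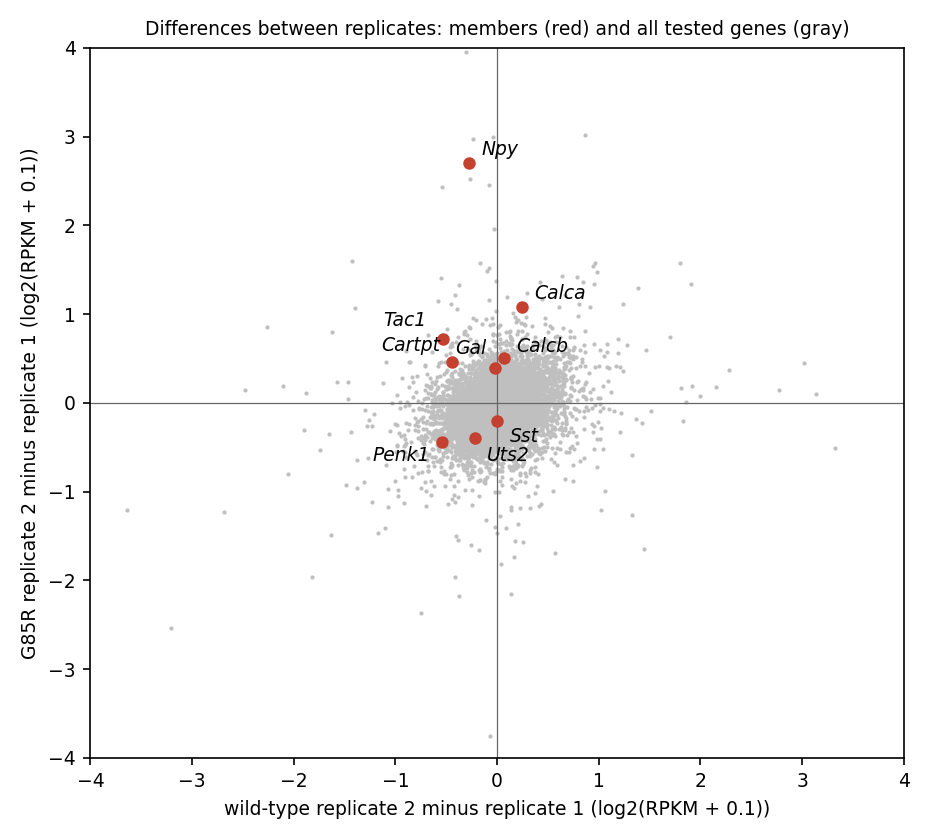
Difference between replicates 2 and 1 in wild-type (horizontal axis) and G85R (vertical axis), in log2(RPKM + 0.1), for all tested genes (gray) and the 9 neuropeptide genes (red, labelled). Npy (2.70) and Calca (1.08) lie high on the G85R axis and near 0 on the wild-type axis; 23 of the tested genes lie outside the axes, which end at 4.

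The direction of that replicate difference was not the same for all peptides. Calca, Calcb, Cartpt, Gal, Npy and Tac1 were higher in G85R replicate 2, whereas Uts2, Penk1 and Sst were higher in G85R replicate 1. The ratio of Calca to Calcb was 6.61 and 7.46 in wild-type, against 5.05 and 7.50 in G85R, so that replicate 1 of G85R was low in Calca even beside its neighbor. Uts2 was 5.31 and 4.79 times as high as Uts2d, the gene of the related urotensin peptide, in wild-type, and 8.84 and 3.64 times in G85R. Between the G85R replicates the urotensin pair thus differed in opposite directions, Uts2d being at 34.3 and 63.3 RPKM there and at 72.9 and 69.4 in wild-type.

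Markers of cell types and motor neuron classes also differed between the G85R replicates. Chodl, a marker of fast motor neurons, was at 232 and 226 RPKM in wild-type, against 140 and 258 in G85R, low in the same library as Calca. Mmp9, another marker of fast motor neurons, was at 37.0 and 45.1 in wild-type, against 31.2 and 43.2 in G85R. The other 6 genes of the motor neuron class list did not share this order, being higher in G85R replicate 1 than in replicate 2, among them Sv2a at 60.3 and 57.8 in wild-type, against 87.1 and 61.3 in G85R, and Gfra1 at 32.3 and 47.7, against 39.6 and 36.3. Gfap was at 11.5 and 17.1 RPKM in wild-type, against 91.9 and 28.4 in G85R, so that the library highest in astrocyte RNA was the one lowest in Calca and was not the one highest in Npy. The part of these markers in the peptide values was not tested.

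As a share of the summed motor neuron markers, Calca was at 30.3% and 32.4% in wild-type, against 15.4% and 27.9% in G85R. This left G85R replicate 1 the lowest by a wide margin. The sum rests mostly on Nefh and Prph, and Chat and Isl2 were lower in that library by a larger factor than the sum. Scaling to single markers was not run. Cartpt was at 1.97% and 1.31% of that sum in wild-type, against 0.699% and 0.825% in G85R, still without overlap. On this scale, which was chosen after the data were seen, the genotypes overlapped in Uts2 (15.7% and 12.2% against 13.8% and 8.94%) and in Sst, so that 4 genes were lower and Npy was higher without overlap. The share of all tested genes without overlap was not computed on this scale, so nothing is read from that count.

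**Figure D4:**
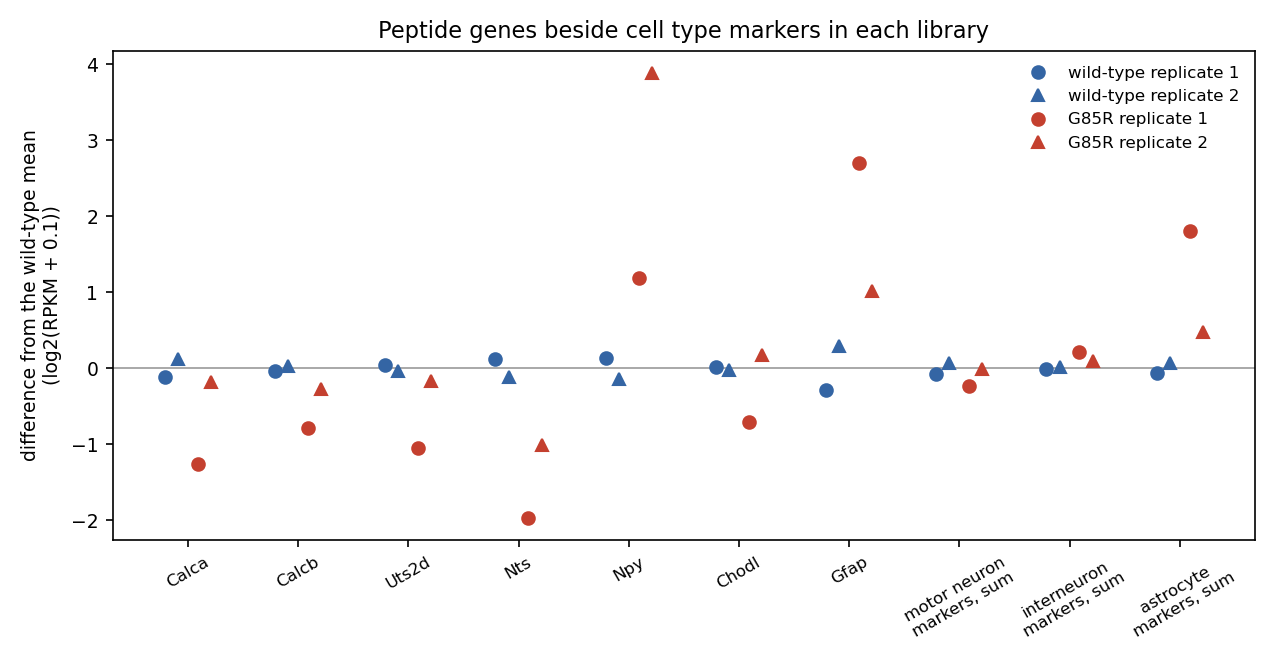
Difference of each library from the wild-type mean, in log2(RPKM + 0.1), for selected peptide genes, for the markers Chodl (fast motor neurons) and Gfap (astrocytes) and for the summed markers of 3 cell types; blue is wild-type, red is G85R, circles are replicate 1 and triangles are replicate 2. Calca (-1.26), Uts2d (-1.05) and Chodl (-0.71) are low and Gfap (2.70) is high in G85R replicate 1. The summed motor neuron markers, mostly Nefh and Prph, lie between -0.24 in that library and 0.07 in wild-type replicate 2.

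For each of the 9 genes, the 3 tested genes closest to it over the 4 libraries were found by the Euclidean distance between log2(RPKM + 0.1) values, each gene centered on its own mean. Calca was closest to Pdlim5 (distance 0.13), at 6.02 and 7.21 RPKM in wild-type, against 2.99 and 6.32 in G85R, followed by the transcript AK134203 (0.19) and by Gcsh (0.24). A gene with the same value in every library would be at a distance of 1.06 from Calca. Cartpt was closest to Cadps2 (0.18), Zfp672 and Insl6, and Gal to BC060267 (0.19), Tbc1d1 and AK005116. Npy had no near neighbor, its closest genes being AK030206 (0.93), Rps19 (1.09) and Lbx2 (1.45). Tac1 was closest to Rpl31 (0.10), Derl3 and 1700021C14Rik. The distances were shorter for genes with smaller differences, such as Uts2 (Fgfr2, Coil and Gpatch4), Calcb (Fam77D, Nr1h3 and ptpc1), Sst (Vps37d, St8sia5 and Zfp187) and Penk1 (Ccdc55, Ppp1r11 and Zadh1). With 4 libraries and 11530 genes, close profiles are common and say nothing more.

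The promoters were searched for the cyclic AMP response element, which is well known from the somatostatin gene and binds the factor CREB. The RefSeq table used, on build GRCm38.p6, holds 250 bases before and 50 after each gene's start and has an entry for 7 of the 9 genes (Calcb and Penk1 have none in it). The full element, TGACGTCA, which reads the same on both strands, was found in 2 of the 7, Cartpt and Sst, and in 1.79% of all 32851 promoters. Since the element was already known in Sst, that count is no test of enrichment. The shorter TGACG on either strand, which each full element also holds, was found in 5 of the 7 (Calca, Cartpt, Gal, Sst and Tac1) and in 20.8% of all promoters. The matched letters are in capitals.
Cartpt, chr13:99900778-99900805, minus strand: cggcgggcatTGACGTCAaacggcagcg
Sst, chr16:23890875-23890902, minus strand: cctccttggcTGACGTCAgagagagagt
Calca, chr7:114636408-114636432, minus strand: agcacagaggTGACGcaatctgtct
The full elements begin 112 bases before the start of Cartpt and 48 before that of Sst, at -112 and -48. Of these genes with the full element, Cartpt was 2.30-fold lower in G85R and Sst 1.13-fold. The windows of Npy and Uts2 hold neither spelling.

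Other neuropeptide genes were found for 48 of 53 symbols searched, 13 of them averaging 1 RPKM or more and 9 listed at 0 in every library. By limma, 0 of the 13 were called in either direction, against 0.642% of all tested genes. An unadjusted p under 0.05 was reached by 3, all with lower values in G85R, against 11.0% of all tested genes in either direction. Nts (neurotensin) was at 25.6 and 21.6 RPKM in wild-type, against 5.93 and 11.6 in G85R, with a log2 fold change of -1.49 ± 0.286 (SE) and an adjusted p of 0.101. Its log2 fold change was -1.02 without G85R replicate 1 and -1.97 without G85R replicate 2, fits that leave a lone G85R library. Ucn (urocortin, a relative of corticotropin-releasing hormone) was at 14.1 and 16.9 in wild-type, against 8.26 and 11.4 in G85R, with a log2 fold change of -0.67 and an adjusted p of 0.225. Uts2d had a log2 fold change of -0.61 and an adjusted p of 0.451. Without G85R replicate 2, the log2 fold change was -0.90 for Ucn and -1.05 for Uts2d, again with a lone G85R library. With the replicate number as a block, a limma fit that called 527 genes, Nts and Ucn passed the threshold. The most abundant, Cck (cholecystokinin), was at 66.5 and 94.7 RPKM in wild-type, against 61.7 and 89.1 in G85R, with overlapping ranges. Uts2d, Nts and Ucn came next by mean RPKM, and then Agrp (agouti-related peptide) at 5.93 and 4.86 in wild-type, against 7.52 and 5.29 in G85R. The median log2 fold change of the 13 genes was -0.10.

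Enzymes and helpers of peptide processing included the only call among the pathway genes. The pathway lists were chosen with earlier results of these data known, so calls in them are not independent of the data. Of 13 genes, 11 were tested, and by limma 1 fell and 0 rose, against 0.373% and 0.269% of all tested genes. Scg5 (7B2, which binds the convertase PCSK2 and is needed for its activation) was at 732 and 657 RPKM in wild-type, against 176 and 163 in G85R. It fell by 2.03 on the log2 scale, with a standard error of 0.101 and an adjusted p of 0.00124, and the gap between genotypes was far wider than that between replicates. Its call was lost when all 27189 entries were tested without a minimum RPKM, where the adjusted p was 0.140 at the same fold change. Pcsk1, a convertase that cuts precursors at paired basic residues, was at 3.33 and 3.38 RPKM in wild-type, against 1.62 and 1.54 in G85R, with a log2 fold change of -1.04 and an adjusted p of 0.0609. Under 4 of the alternatives, listed in the closing section, Pcsk1 passed the threshold.

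No other processing gene passed the test. Pcsk2, the convertase that Scg5 serves, was at 52.0 and 50.7 RPKM in wild-type, against 42.1 and 44.4 in G85R, with a log2 fold change of -0.25 and an adjusted p of 0.426. Cpd, a carboxypeptidase of the trans-Golgi network, was at 8.00 and 8.11 in wild-type, against 9.46 and 10.2 in G85R (log2 fold change 0.29, adjusted p 0.446). Pcsk1n (proSAAS, an inhibitor of PCSK1) was the most abundant, at 784 and 1222 RPKM in wild-type, against 925 and 1051 in G85R. Cpe, the carboxypeptidase that trims the cut peptides, was at 374 and 380 in wild-type, against 398 and 419 in G85R. Pam, which amidates the ends of peptides such as CGRP and neuropeptide Y, was at 31.8 and 31.7 in wild-type, against 29.7 and 29.5 in G85R. The median log2 fold change of the 11 genes was -0.10.

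Receptors of these peptides and their partner proteins, with the related Oprl1 and Ramp2, were found for all 27 symbols, and 12 of them were tested. By limma 0 were called, against 0.642% of all tested genes. An unadjusted p under 0.05 was reached by 5, against 11.0% of all tested genes. Of the 5, 3 had lower and 2 higher values in G85R. Ramp2, which turns the calcitonin receptor-like receptor into an adrenomedullin receptor, was at 27.2 and 30.1 RPKM in wild-type, against 10.3 and 16.9 in G85R. By limma its log2 fold change was -1.12 ± 0.221 (SE), with an adjusted p of 0.111. The log2 fold change was -0.76 without G85R replicate 1 and -1.47 without G85R replicate 2, fits that leave a lone G85R library. Ramp1, the relative of Ramp2 in the CGRP receptor, was at 9.96 and 14.1 in wild-type, against 14.1 and 13.4 in G85R, with overlapping ranges. Their partner Calcrl was at 0.173 to 0.300 in the 4 libraries, below the minimum for a test, and Crcp, a further component of CGRP receptors, was at 35.4 and 33.2 in wild-type, against 36.6 and 27.6 in G85R.

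Receptors for galanin and neuropeptide Y were low in RPKM. Galr2, a galanin receptor, was at 1.84 and 2.03 RPKM in wild-type, against 2.99 and 3.49 in G85R, with a log2 fold change of 0.71 and an adjusted p of 0.184. Of the neuropeptide Y receptors, Npy1r was at 1.74 and 1.45 RPKM in wild-type, against 2.81 and 2.10 in G85R (log2 fold change 0.58, adjusted p 0.404). Npy2r was at 1.60 and 1.75 in wild-type, against 0.758 and 1.25 in G85R (log2 fold change -0.72, adjusted p 0.415). Npy5r was at 3.68 and 3.13 in wild-type, against 2.27 and 2.33 in G85R (log2 fold change -0.54, adjusted p 0.302). Oprl1, the nociceptin receptor of the opioid receptor family, and Crcp had the highest mean RPKM of this list and could not be ordered, each being the higher in 2 of the 4 libraries. Oprl1 was at 34.9 and 38.9 in wild-type, against 30.6 and 37.3 in G85R. Tacr1, the substance P receptor, was at 9.95 and 10.9 in wild-type, against 7.22 and 10.2 in G85R. The median log2 fold change of the 12 genes was -0.08.

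Of 11 peptidases that can cleave neuropeptides, all were found, 8 were tested and limma called 0, against 0.642% of all tested genes. Ace (angiotensin-converting enzyme) alone of the 8 had an unadjusted p under 0.05, against 11.0% of all tested genes. It was at 13.6 and 14.7 RPKM in wild-type, against 10.2 and 11.5 in G85R, with a log2 fold change of -0.38 and an adjusted p of 0.317. The most abundant were Thop1 (thimet oligopeptidase, 24.8 and 35.0 in wild-type, against 26.1 and 28.7 in G85R) and Ece2 (an endothelin-converting enzyme, 22.3 and 27.8 in wild-type, against 18.5 and 24.2 in G85R). Prep (prolyl endopeptidase) was at 15.1 to 15.6 and Ide (insulin-degrading enzyme) at 12.1 to 16.6 over the 4 libraries. The median log2 fold change of the 8 genes was -0.18.

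**Figure D5:**
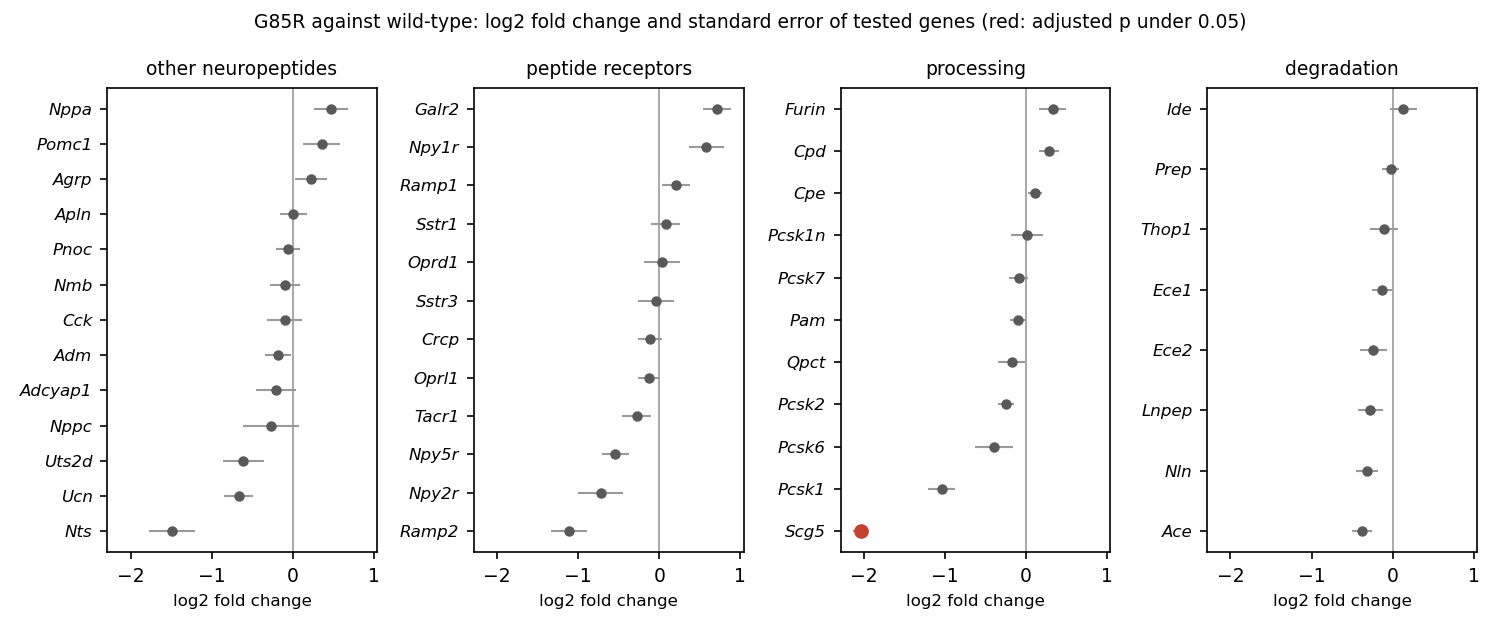
Log2 fold change of G85R against wild-type, on log2(RPKM + 0.1), with its standard error from limma, for the tested genes of 4 lists: other neuropeptides, peptide receptors, processing and degradation. Red marks an adjusted p under 0.05, which only Scg5 (-2.03) reached, and Nts (-1.49), Ramp2 (-1.12) and Pcsk1 (-1.04) are the next lowest.

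With 2 libraries in each genotype, the smallest p that an exact permutation test could return for 1 gene is 0.333, and the replicate values above are the measure of error for these genes.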

How the data were processed

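RNA-seq values were analyzed for 4 libraries of laser-captured motor neuron cell bodies. The deposited values are RPKM for each UCSC gene cluster, which the authors quantified with Cufflinks, together with the same RPKM after 1 read had been added to every gene. The submitters' processing notes name Bowtie 0.12.3 and mm9. Reads behind a gene were estimated as its RPKM over the RPKM of 1 read (the difference of both values) and are not exact counts, so that no counting intervals were computed.

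The genotype contrast was fitted to log2(RPKM + 0.1) by limma (version 3.58.1, R 4.3.3), using lmFit and a trended eBayes and no block. It took the 11530 entries that averaged 1 RPKM or more, with Benjamini-Hochberg adjustment over all of them and a threshold of 0.05. The fit was tested on simulated data. The 9 genes and the pathway and marker lists were chosen with earlier results of these data known. Named are the 9 genes, with the 3 tested genes closest to each, and from each pathway list the called genes, those with an unadjusted p under 0.05 and the 5 of highest mean RPKM. The receptors Calcrl and Sstr2 and the markers Chodl, Mmp9, Sv2a, Gfra1 and Gfap were named after their values were seen. Positions and transcripts were read from the NCBIM37 annotation and genome and promoters from RefSeq (GRCm38.p6). Remaining steps used Python 3.11.15 with pandas 2.3.3, numpy 2.4.6 and, for plots, matplotlib 3.10.9.

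Alternatives were pseudocounts of 1 and 0.01, median ratio and quantile scaling, a minimum RPKM of 0.1, 5 or none, a replicate block, eBayes without trend or robust, the values with 1 read added, a log-linear likelihood ratio test, and leaving out each library. Scaling to motor neuron markers was added after the data were seen.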

Additional observations from a re-analysis of the deposited data

How the results depend on the processing

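Limma called 74 genes. The count was 40 after quantile normalization, 17 with a minimum mean RPKM of 5, 112 with no filter and 49 with eBayes without trend, and 80 to 189 without 1 library (80 without wild-type replicate 2, 115 without wild-type replicate 1, 118 without G85R replicate 1 and 189 without G85R replicate 2). There a genotype has a lone library, which is assumed to vary like the other genotype. Replicates share a number between genotypes, but nothing states what a number marks. With 2 pairs, the deviations of same-numbered libraries correlated at 0.22. A fit with the number as a block called 527 genes, or 4.57% of those tested, among them 6 of the 9 neuropeptide genes. Since the 9 genes were picked on this contrast, nothing is read from that count.

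Other neuropeptide genes, 0 called, gave 2 with the replicate block (Nts and Ucn) and 0 to 3 without 1 library: 1 without G85R replicate 1 (Nts) and 3 without G85R replicate 2 (Nts, Ucn and Uts2d). Receptors, 0 called, gave 1 with a minimum RPKM of 0.1 or no filter (Sstr2, at 0 in both wild-type libraries and 0.497 and 0.508 in G85R), 1 with the block (Ramp2) and 0 to 1 without 1 library (Ramp2 without G85R replicate 2). Processing genes, 1 called, gave 0 with no filter and 2 (Scg5 and Pcsk1) with the block, with eBayes without trend, with robust eBayes and with 1 read added. Scg5 was called without each library in turn. Peptidases gave 0 under each alternative run for them. The log-linear test was run for the count over all genes only (62).

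The genotypes did not overlap in 7 of the 9 genes, against 41.2% of all tested genes. They did not overlap in 7 to 9 without 1 library, where a lone library makes overlap rarer, and in 5 when scaled to motor neuron markers. The share of all tested genes was not computed under these alternatives, so nothing is read from their counts. Over all alternatives the log2 fold change ran from -1.26 to -0.18 for Calca, -0.78 to -0.28 for Calcb, -1.43 to -0.97 for Cartpt, -1.40 to -0.91 for Gal, 1.18 to 3.88 for Npy, -0.64 to -0.24 for Uts2, -0.28 to -0.05 for Sst, 0.01 to 0.73 for Tac1 and -0.38 to 0.16 for Penk1, whose sign changed in 3. The ends for Calca, Calcb, Cartpt, Npy, Tac1 and Uts2 come from leaving out a G85R library.

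The sign also changed for genes that were not called. Prep was at 0.000388 with the median ratio and 0.015 with quantile normalization, and Pcsk1n at -0.048 with quantile normalization. Without 1 library, Cck ran from -0.36 to 0.17 (above 0 without wild-type replicate 2 or G85R replicate 1), Agrp from -0.021 to 0.48, Ide from -0.092 to 0.36 and Oprl1 from -0.27 to 0.018 (all turned without G85R replicate 1), Thop1 from -0.35 to 0.14 (turned without wild-type replicate 2), Crcp from -0.31 to 0.094 (turned without G85R replicate 2), Ramp1 from -0.043 to 0.46 (turned without wild-type replicate 1) and Pcsk1n from -0.31 to 0.33 (turned without wild-type replicate 1 or G85R replicate 2). The cause was not tested. Depth limits Gal, Npy and Tac1, which rest on 19 to 92 reads except for Npy in G85R replicate 2.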
